A study of Mus musculus with 24 samples.

Results

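The comparison set the effect of losing ZBTB16 beside the effect of losing SOX3 in sorted KIT+ differentiating spermatogonia (dSPG) of the mouse testis, gene by gene. It drew on 12 of the 24 RNA sequencing libraries of the series, 3 for each of 4 groups. The first effect was Zbtb16-null KIT+ dSPG less wild-type (WT) KIT+ dSPG. The second was KIT+ dSPG with a conditional knockout (cKO) of Sox3 less the WT libraries of the Sox3 table that are labelled THY1+. Genes were matched by Ensembl identifier, and 21037 of the 23333 genes in either table were tested in both effects.

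All mice were on a C57BL/6J background and were taken at postnatal day 7, with the testes of 3 mice pooled for each isolation and the cells sorted with magnetic beads against THY1 or KIT. The Zbtb16-null mice were homozygous for the luxoid allele (Zbtb16 lu/lu), a loss in every tissue that makes the factor. The Sox3 cKO mice carried a floxed Sox3 allele deleted by Ddx4-Cre, a recombinase under the promoter of a germ cell gene. Each mutant was compared with the WT libraries of its own table, and per the study's methods the Zbtb16 controls could include heterozygous littermates. The study describes its RNA-seq replicates as biological and independently derived.

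These WT libraries were chosen by their measured Kit and Thy1 levels, against their label. Kit, which encodes the receptor used for the sort, was at 48.2, 45.6 and 80.1 FPKM in the Sox3-table WT libraries labelled THY1+, and at 49.9, 71.4 and 56.7 FPKM in the cKO KIT+ libraries. FPKM counts fragments scaled to transcript length and to library size. Among the Zbtb16 libraries Kit was at 55, 69.7 and 52.5 FPKM in WT KIT+ dSPG and at 51.7, 74.8 and 52.6 FPKM in null KIT+ dSPG. Thy1 lay between 0.156 and 0.666 FPKM in the 12 libraries. Thus the levels of both markers in these WT libraries went against their label. Kit overlapped between all 4 groups, and Thy1 was higher in null KIT+ dSPG than in all 6 Sox3-table libraries. Both genes chose the libraries, so no test is given on them, and genes that differ between the fractions are tied to the same choice. Every p-value of the Sox3 effect is conditional on it.

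ZBTB16 (PLZF) is a zinc finger transcription factor of undifferentiated spermatogonia (uSPG) that can repress or activate its targets and is known for the long-term maintenance of these cells. SOX3 is an X-linked transcription factor of the SOX family, found in progenitor uSPG, and Neurog3 is a known gene downstream of it. Retinoic acid drives the step from uSPG to KIT+ dSPG and induces Stra8, and dSPG then divide several times before meiosis. Fractions sorted from whole testis with beads also carry RNA of Leydig, Sertoli, peritubular and endothelial cells.

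Depth, estimated from the steps of low FPKM values, was 25.9 to 35.2 M reads (M, mega) for the Zbtb16 contrast. The Sox3 libraries of replicate 1 held 28.2 to 31.8 M reads and those of replicates 2 and 3 held 11.8 to 13.6 M reads, so low values were less precise there. No library of one table was identical to a library of the other. The targeted genes matched the genotype labels. Zbtb16 was at 14.4, 23 and 17.1 FPKM in WT KIT+ dSPG and at 6.69, 6.59 and 6.11 FPKM in null KIT+ dSPG, a fall of 1.45 ± 0.17 (SE) on the log2 scale (limma, adjusted p = 0.00502). In the Sox3 table Zbtb16 was at 15.9, 14.5 and 28.9 FPKM in WT and at 9.79, 15.7 and 15.9 FPKM in cKO libraries, and its effect of -0.48 missed the threshold (limma, adjusted p = 0.246). Sox3 was at 8.67, 6.28 and 24.4 FPKM in its WT controls and at 0, 0.082 and 0.041 FPKM in cKO KIT+ libraries. The estimated reads of Sox3 were 1429 over the WT libraries and 3 over the cKO libraries, a ratio of 419 after scaling to depth (exact 95% interval 143 to 2040, counting error only). Among the Zbtb16 libraries Sox3 was at 4.47, 6.77 and 3.86 FPKM in WT and at 9.4, 9.8 and 3.67 FPKM in null KIT+ dSPG, which overlapped.

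The effects differed in size and agreed in direction more often than not. Here and below a gene was called where its Benjamini-Hochberg adjusted p from limma was 0.05 or less and its values differed by 1.5-fold or more. In the Zbtb16 effect 58 genes passed (0.259% of 22374 tested), of which 43 were higher and 15 lower (0.067%) in the null. In the Sox3 effect 3608 genes passed (17.0% of 21212 tested), of which 2638 were higher and 970 lower in the cKO. In bulk RNA, fewer cells of a type and less RNA per cell cannot be told apart. The SD of the log2 differences over genes was 0.36 for the Zbtb16 effect and 0.59 for the Sox3 effect. Unadjusted p-values under 0.05 were found for 3863 and 8080 genes. Same-numbered null and WT libraries of the Zbtb16 table deviated together, and with the replicate number as a block the Zbtb16 effect had 513 calls (2.29% of genes tested), 351 higher and 162 lower. This block was not part of the main fit, and its use in the Zbtb16 table alone was chosen after seeing the data.

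The split between higher and lower calls depended on scaling. With the values of each library centred on their median, 53.5% of the Sox3 calls and 58.0% of the Zbtb16 calls were higher, beside 73.1% and 74.1% as deposited, and the median of all genes moved from 0.02 to -0.09 in the Sox3 effect and from 0.01 to -0.08 in the Zbtb16 effect.

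Across the 21037 genes the correlation of the effects was r = 0.54 (Spearman's rho 0.55). This is a description across genes, which are not independent replicates, and the tables share no control libraries. The signs agreed for 14832 genes (70.5%). Among the 1441 genes that moved by at least 1.5-fold in both effects, 1209 were higher in both mutants and 141 lower in both, while 43 were higher in the Zbtb16 null and lower in the Sox3 cKO and 48 the reverse. With median centring the counts higher and lower in both were 690 and 299. With a mean of at least 10 FPKM in both tables, r was 0.72 over 6562 genes, and of the 283 that passed 1.5-fold in both none went opposite ways: 272 were higher and 11 lower. For single pairs of same-numbered libraries, the differences correlated at 0.43 to 0.60 within a table and at 0.24 to 0.49 between tables. Leaving out one of the 12 libraries put r between 0.40, without WT KIT+ replicate 1 of the Zbtb16 table, and 0.61, without null KIT+ replicate 1.

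**Figure D1:**
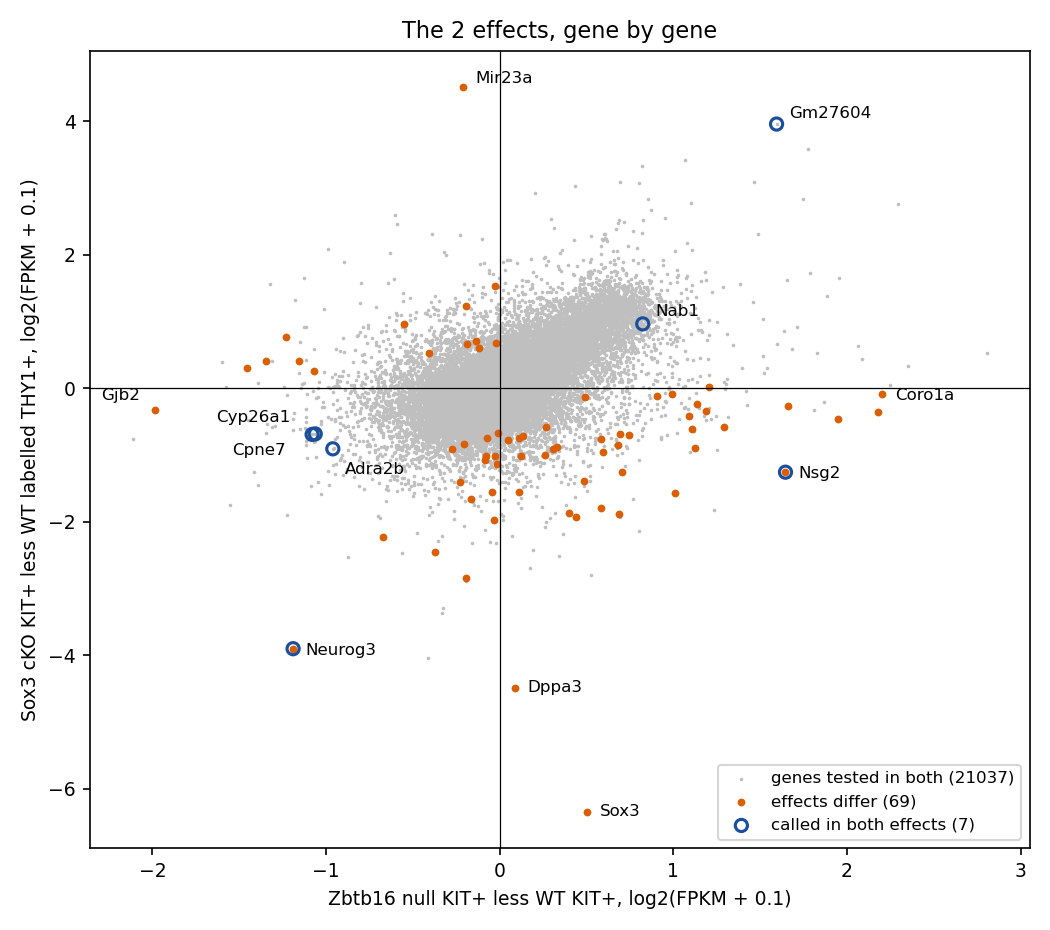
Each grey point is one of 21037 genes, with the Zbtb16 effect on the x axis and the Sox3 effect on the y axis, both as differences of group means of log2(FPKM + 0.1). Circles mark the 7 genes called in both effects and orange points the 69 genes whose effects differed; the cloud runs from lower left to upper right (r = 0.54), and Nsg2 lies alone among the circles in the lower right.

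Few genes were called in both effects. Of genes tested in both effects, 53 were called for Zbtb16 and 3594 for Sox3, and 7 were called in both (13.21% of the Zbtb16 calls and 0.195% of the Sox3 calls). The 7 were Neurog3, Cyp26a1, Cpne7 and Adra2b, lower in both, Nab1 and the small nucleolar RNA Gm27604, higher in both, and Nsg2, higher in the null and lower in the cKO. The Sox3 calls had the same sign in the Zbtb16 effect for 92.01% of 3594 genes. The Zbtb16 calls had the same sign in the Sox3 effect for 60.38% of 53, and for 81.24% of the 485 called with the Zbtb16 replicate block, beside 70.5% of all genes. These shares were not tested against each other. With the Zbtb16 replicate block, 173 genes were called in both: 145 higher, 26 lower and 2 opposite, which was 35.67% of those Zbtb16 calls and 4.814% of the Sox3 calls.

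Neurog3, a transcription factor of progenitor spermatogonia, was lower in both mutants and by far more in the Sox3 cKO. It was at 3.89, 4.95 and 3.5 FPKM in WT and at 2.23, 1.61 and 1.43 FPKM in null KIT+ dSPG. For Sox3 it was at 6.54, 4.68 and 5.57 FPKM in WT libraries and at 0.184, 0.494 and 0.219 FPKM in cKO KIT+ libraries. Mutant and WT libraries did not overlap in either table, as was so for 17.5% of all genes for Zbtb16 and 40.0% for Sox3. The log2 differences were -1.19 ± 0.20 (SE; limma, adjusted p = 0.0389) and -3.90 ± 0.38 (adjusted p = 0.0014). The effects differed by 2.71 ± 0.45 (limma on both tables, adjusted p = 0.0102), and this call held with each of the 12 libraries left out. Cyp26a1 encodes an enzyme that degrades retinoic acid. It was at 2.97, 2.6 and 2.33 FPKM in WT and 1.41, 1.06 and 1.11 FPKM in null KIT+ dSPG. In the Sox3 libraries it was at 3.31, 3.36 and 2.63 FPKM in WT and 1.82, 1.57 and 2.29 FPKM in cKO libraries. It fell by 1.08 ± 0.17 and by 0.69 ± 0.19 on the log2 scale (limma, adjusted p = 0.0246 and 0.0207), and the difference of these effects did not pass (adjusted p = 0.468).

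Cpne7 (a calcium-dependent phospholipid-binding copine) and Adra2b (an alpha-2 adrenergic receptor) were the other genes called lower in both. Cpne7 was at 3.34, 2.78 and 3.14 FPKM in WT and 1.5, 1.43 and 1.34 FPKM in null KIT+ dSPG, and at 3.15, 3.29 and 3.5 FPKM against 1.82, 2.33 and 1.96 FPKM in the Sox3 table. Its log2 differences were -1.06 and -0.68 (limma, adjusted p = 0.0203 and 0.0164). Adra2b was at 0.699, 0.694 and 0.675 FPKM in WT and at 0.298, 0.367 and 0.258 FPKM in null KIT+ dSPG, and at 0.773, 0.806 and 1.16 FPKM against 0.335, 0.569 and 0.421 FPKM in the Sox3 table. The log2 differences were -0.96 and -0.91 (adjusted p = 0.0362 and 0.0168), so close that they differed by -0.06 ± 0.26. In all 4 genes the mutant libraries lay below the WT libraries of their table without overlap.

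Nab1, a co-repressor of EGR transcription factors, was higher in both. It was at 8.81, 12.6 and 11.8 FPKM in WT and at 16.9, 20 and 21.7 FPKM in null KIT+ dSPG, and at 11.7, 8.48 and 9.2 FPKM against 20.4, 17.1 and 19.7 FPKM in the Sox3 table. The log2 differences were 0.82 ± 0.14 and 0.97 ± 0.13 (limma, adjusted p = 0.0362 and 0.00195). Gm27604, a snoRNA gene inside the host transcript Rian, was at 0.974, 1.58 and 2.35 FPKM in WT and 5.35, 4.19 and 5.11 FPKM in null KIT+ dSPG. For Sox3 it was at 0.435 FPKM in 1 WT library and listed at 0 in the others, against 6.39, 1.17 and 2.35 FPKM in cKO libraries. Its log2 differences of 1.59 and 3.96 (adjusted p = 0.0389 and 0.0102) rest on at most 13 reads in any cKO library and on reads that Rian shares.

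Nsg2, which encodes a neuronal vesicular trafficking protein, went opposite ways. It was at 0.329, 0.273 and 0.285 FPKM in WT and at 1.15, 0.943 and 1.35 FPKM in null KIT+ dSPG, a rise of 1.65 ± 0.18 on the log2 scale (limma, adjusted p = 0.00416). In the Sox3 table it was at 0.43, 0.354 and 0.392 FPKM in WT and at 0.0937, 0.122 and 0.102 FPKM in cKO libraries, a fall of 1.26 ± 0.18 (adjusted p = 0.00226). The WT levels of both tables were close, and the mutant levels lay on either side of them. The effects differed by 2.90 ± 0.22 (limma, adjusted p = 9.33e-07), and each of these calls held with any single library left out.

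These calls differed in how much they depended on single libraries. Of the 7 genes, Nsg2 alone was called for Zbtb16 in all 6 fits that leave out one library of that contrast. Neurog3, Cyp26a1 and Gm27604 were each called in 1 of the 6 (highest adjusted p 0.189, 0.118 and 0.181), as was Cpne7 (0.103). Nab1 was called in 2 (0.181) and Adra2b in none (0.0746 to 0.181). Without null KIT+ replicate 2 or 3, or without WT KIT+ replicate 1, no gene was called in one direction in both effects, and without WT KIT+ replicates 2 and 3 the counts were 2 and 1. With the replicate block all 7 were called in the Zbtb16 effect, with adjusted p from 0.00268 for Nsg2 to 0.0251 for Gm27604. In the Sox3 effect Neurog3, Nab1, Gm27604 and Nsg2 were called in all 6 such fits, Cpne7 in 5, Adra2b in 4 and Cyp26a1 in 2. Without cKO KIT+ replicate 1, 3 genes were called in one direction in both effects.

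**Figure D2:**
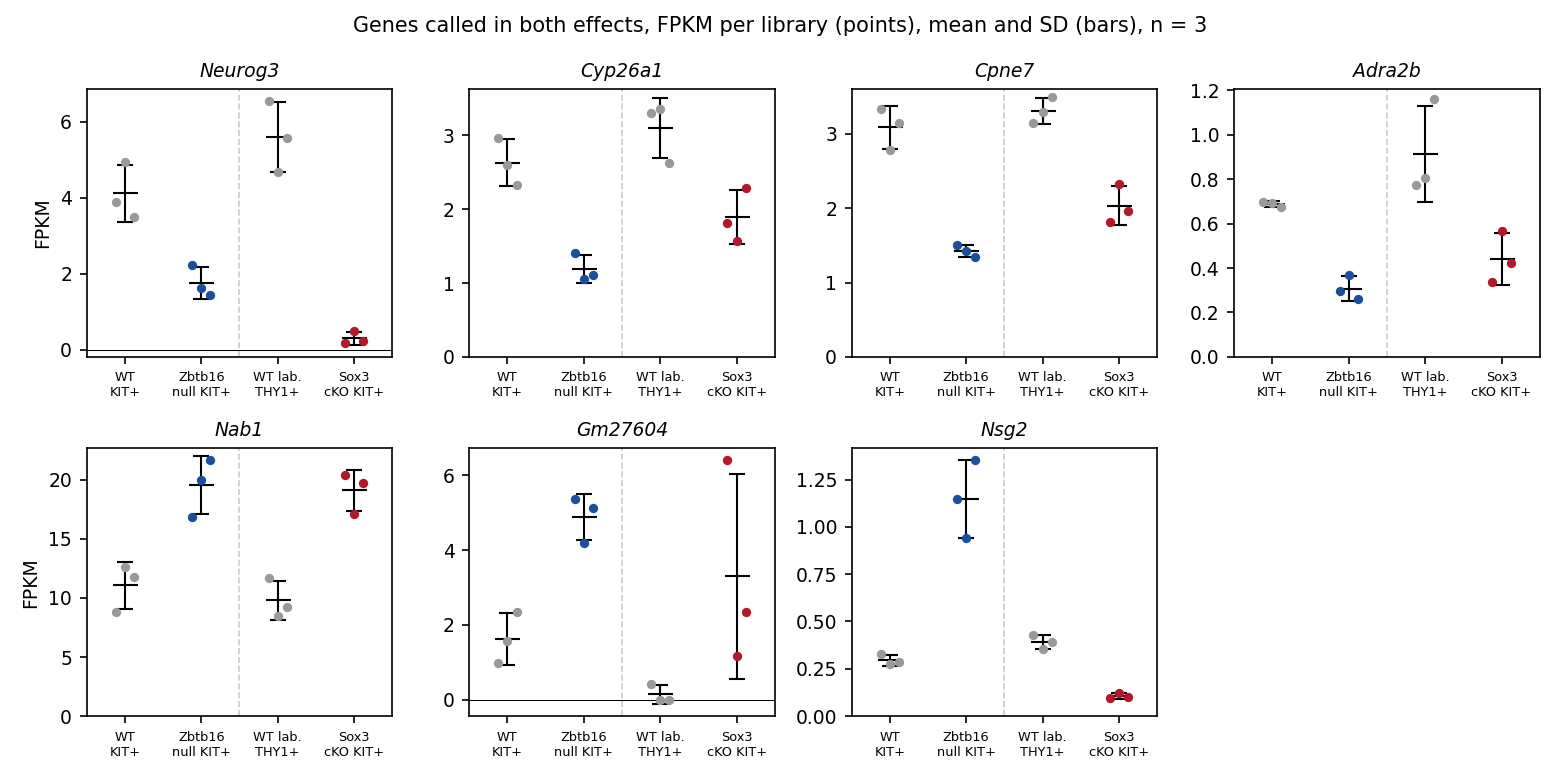
FPKM of the 7 genes called in both effects, with 1 point per library and the mean and SD of the 3 libraries of a group as bars; the dashed line separates the Zbtb16 table from the Sox3 table. Mutant points lie below the WT points in both tables for Neurog3, Cyp26a1, Cpne7 and Adra2b and above them for Nab1 and Gm27604, while those of Nsg2 lie above WT on the left and below WT on the right.

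The promoters of genes that moved together and of the gene that moved oppositely are shown because both factors bind DNA. RefSeq (GRCm38.p6) gave promoter sequence for 5 of the 7 genes. Each window holds 300 bases around the transcription start, most of them upstream, on the strand of the gene. Capitals mark the letters ACAAAG or CTTTGT and ACAATG or CATTGT, the cores of SOX-family motifs read on both strands, which do not overlap each other here. The windows are chr10:62132840-62133139 (plus strand) for Neurog3, chr19:37697558-37697857 (plus strand) for Cyp26a1, chr2:127362929-127363228 (plus strand) for Adra2b and chr11:32000169-32000468 (plus strand) for the first of 2 listed Nsg2 promoters.
Neurog3: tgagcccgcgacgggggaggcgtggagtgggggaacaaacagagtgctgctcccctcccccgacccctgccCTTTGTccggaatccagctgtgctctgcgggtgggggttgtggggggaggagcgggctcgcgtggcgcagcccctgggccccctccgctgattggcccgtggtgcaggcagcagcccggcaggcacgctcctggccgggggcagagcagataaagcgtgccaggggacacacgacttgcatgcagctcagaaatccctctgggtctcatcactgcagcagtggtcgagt
Cyp26a1: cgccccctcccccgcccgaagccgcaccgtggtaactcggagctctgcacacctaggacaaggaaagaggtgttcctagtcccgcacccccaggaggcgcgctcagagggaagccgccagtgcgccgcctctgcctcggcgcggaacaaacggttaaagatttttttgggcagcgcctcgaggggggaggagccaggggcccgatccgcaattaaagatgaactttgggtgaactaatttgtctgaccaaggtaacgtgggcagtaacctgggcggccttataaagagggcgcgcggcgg
Adra2b: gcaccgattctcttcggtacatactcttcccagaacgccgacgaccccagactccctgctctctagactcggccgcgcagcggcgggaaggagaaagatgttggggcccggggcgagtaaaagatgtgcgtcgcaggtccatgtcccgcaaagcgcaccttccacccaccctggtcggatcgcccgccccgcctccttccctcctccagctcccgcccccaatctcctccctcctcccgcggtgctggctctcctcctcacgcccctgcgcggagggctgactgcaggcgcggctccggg
Nsg2: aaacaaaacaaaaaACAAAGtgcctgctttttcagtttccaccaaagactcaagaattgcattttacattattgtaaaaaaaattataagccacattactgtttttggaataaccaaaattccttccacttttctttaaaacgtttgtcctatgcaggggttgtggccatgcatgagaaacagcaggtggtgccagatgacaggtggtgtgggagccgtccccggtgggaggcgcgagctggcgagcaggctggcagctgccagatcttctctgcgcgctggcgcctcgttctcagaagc

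The Neurog3 window and the first Nsg2 window each held 1 match to ACAAAG or its complement and none to ACAATG. The windows of Cyp26a1, Adra2b and Nab1 and the second Nsg2 promoter (chr11:32000450-32000749) held neither. Of 32851 promoter windows of the same length in the table, 18.7% held ACAAAG or its complement and 28.6% held either motif. A match describes letters and says nothing of binding. GC content was 47.0% in the printed Nsg2 window, 62.3% in that of Cyp26a1, 68.0% in that of Adra2b and 68.3% in that of Neurog3.

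The test of the difference between the effects picked out 69 genes (0.328% of 21037), 54 with the Zbtb16 effect above the Sox3 effect and 15 (0.0713%) below it. At an unadjusted p under 0.05 there were 3051. Among the 69, 51 had opposite signs in the 2 effects: 37 were higher in the null and lower in the cKO, and 14 the reverse. The call in single effects was Sox3 alone for 43 genes, Zbtb16 alone for 16, both for 2 and neither for 8. Only 43 of the 3587 Sox3 calls without a Zbtb16 call were among the 69, so such a call was seldom shown to be a difference. With the Zbtb16 replicate block, 133 genes passed (0.632%). The count was 18 without null KIT+ replicate 1, 25 and 30 without WT KIT+ replicates 3 and 2 of the Zbtb16 table, and 35 without WT replicate 3 of the Sox3 table.

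Germ cell factors were among the genes whose effects differed. Dppa3 (Stella, a maternal and germ cell protein) was at 2, 2.22 and 2.24 FPKM in WT libraries labelled THY1+ and at 0 in all 3 cKO libraries, at least 9.41-fold lower against a floor of 3 reads per library. In the Zbtb16 libraries it was at 2.36, 1.31 and 1.82 FPKM in WT and 3.41, 1.31 and 1.5 FPKM in null KIT+ dSPG, and the effects differed (limma, adjusted p = 0.000347). Lin28a, an RNA-binding protein of progenitors, fell by 1.40 ± 0.18 in the Sox3 effect (limma, adjusted p = 0.00177), from 31, 25.2 and 36.1 FPKM to 9.1, 11.4 and 14.7 FPKM. In the Zbtb16 libraries it was at 21, 28.7 and 27.9 FPKM in WT and 23.1, 21.2 and 21.5 FPKM in null KIT+ dSPG. Its effects differed by 1.17 (adjusted p = 0.0284), a call that held in 4 of the 12 fits with one library left out. The transcript A730013G03Rik fell by 2.84 ± 0.23 in the Sox3 effect, from 1.46, 1.47 and 1.29 FPKM to 0.0685, 0.164 and 0.109 FPKM (adjusted p = 0.000429), and had -0.20 in the Zbtb16 effect (adjusted p = 0.662).

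Coro1a, an actin regulator of blood cells, was called in the Zbtb16 effect and not in the Sox3 effect. It was at 1.37, 1.91 and 1.38 FPKM in WT and at 6.84, 7.86 and 7.62 FPKM in null KIT+ dSPG, a rise of 2.20 ± 0.17 on the log2 scale (limma, adjusted p = 0.000574). For Sox3 it was at 2.56, 1.69 and 2.07 FPKM in WT and 2.07, 1.88 and 1.94 FPKM in cKO libraries, and the effects differed by 2.28 ± 0.28 (adjusted p = 0.000442). Rxrg, a retinoid X receptor, was at 0.199, 0.223 and 0.251 FPKM in WT and at 0.923, 1.43 and 1.14 FPKM in null KIT+ dSPG. It rose by 1.95 ± 0.24 in the Zbtb16 effect (limma, adjusted p = 0.0071), had at most 5 reads in a cKO library, and its effects differed by 2.40 (adjusted p = 0.0335, kept in 2 of 12 fits with a library left out). Krt18, a keratin that the study names, rose by 2.08 ± 0.15 in the Zbtb16 effect (adjusted p = 0.000315), from 0.476, 0.487 and 0.508 FPKM to 2.34, 2.3 and 2.58 FPKM. Its Sox3 values of 0.874, 0.472 and 0.37 FPKM in WT and 0.809, 0.423 and 1.27 FPKM in cKO libraries overlapped, and the test of the difference did not pass (adjusted p = 0.1).

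In the other direction Gjb2, which encodes the gap junction protein connexin 26, fell by 1.98 ± 0.19 in the Zbtb16 effect (limma, adjusted p = 0.00251). It was at 1.25, 1.57 and 1.1 FPKM in WT and at 0.288, 0.264 and 0.209 FPKM in null KIT+ dSPG, against 1.41, 1.53 and 2.18 FPKM in WT and 1.16, 1.41 and 1.41 FPKM in cKO libraries. The effects differed by -1.66 ± 0.26 (adjusted p = 0.00807). This call held with any library left out (limma, adjusted p from 0.00225 to 0.0315). Gm2381 and Gm14412, genes of zinc finger clusters whose members are alike enough to share reads, also differed. Gm2381 fell by 1.07 in the Zbtb16 effect, from 4.71, 4.91 and 5.16 FPKM to 2.36, 2.21 and 2.32 FPKM (limma, adjusted p = 0.00502). Gm14412 rose by 1.24 in the Sox3 effect, from 3.63, 3.86 and 3.37 FPKM to 7.39, 9.2 and 9.51 FPKM (adjusted p = 0.00253). Their differences of effects were -1.33 and -1.43 (adjusted p = 0.0177 and 0.0149), kept in 8 and 10 of the 12 fits with a library left out.

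**Figure D3:**
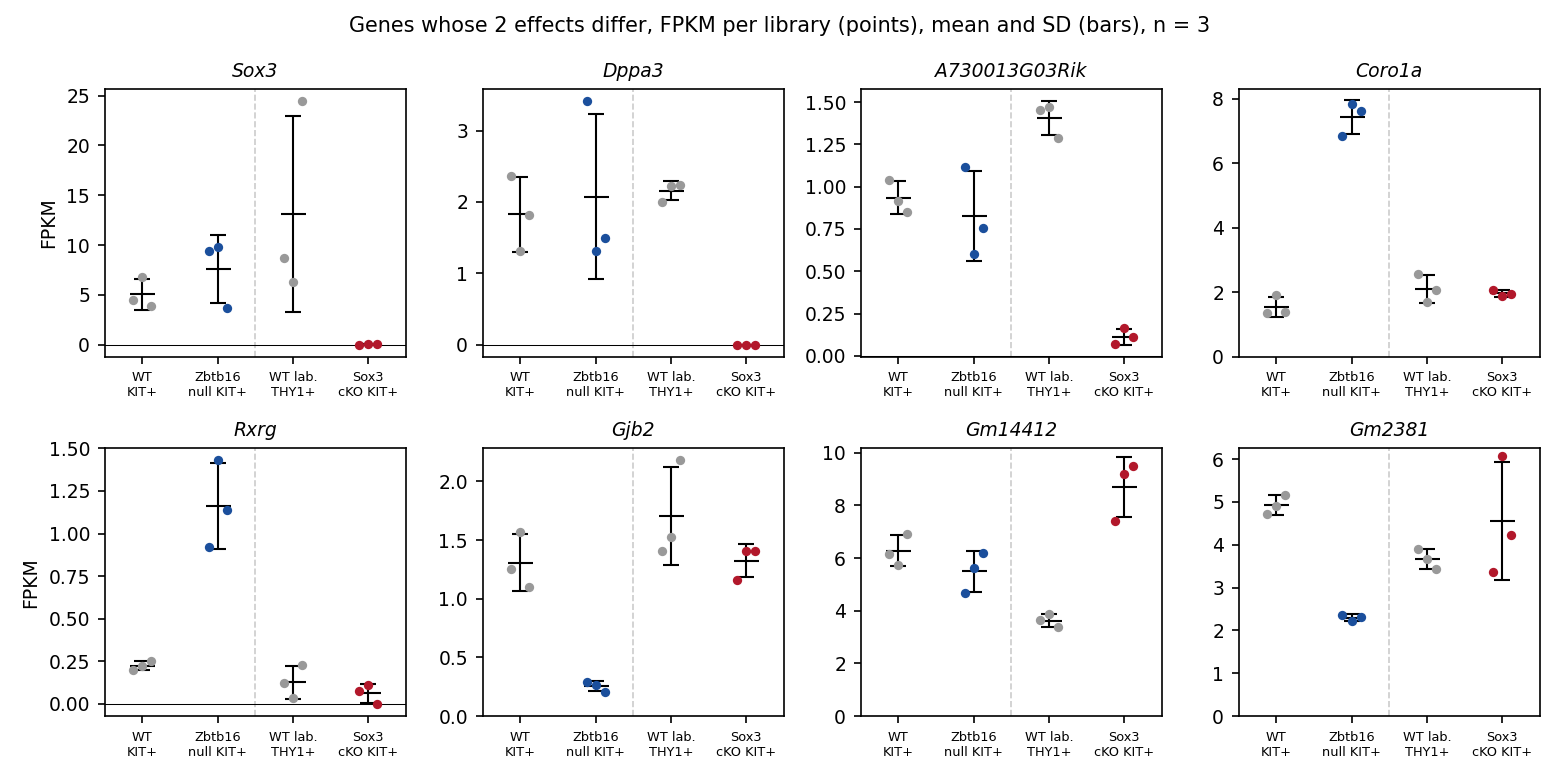
FPKM of 8 genes whose effects differed, with 1 point per library and the mean and SD of the 3 libraries of a group as bars; the dashed line separates the Zbtb16 table from the Sox3 table. Sox3, Dppa3, A730013G03Rik and Gm14412 separate mutant from WT on the right alone, and Coro1a, Rxrg and Gm2381 on the left alone; Gjb2 separates on the left, and on the right its groups nearly touch.

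Of the listed genes of differentiating spermatogonia and of meiosis, 5 of 10 and 11 of 22 were called lower in the Sox3 cKO. None was called in the Zbtb16 effect without the replicate block, where 0.259% of all genes were. The somatic lists were higher in the same cKO libraries. With an index of somatic markers as a covariate, no gene at all was called in the Sox3 effect. Sox3 itself, the deleted gene, had -6.00 there (limma, adjusted p = 0.439). Index and genotype separate the same libraries, so that fit could not decide about these lists. In a list of 10 genes of differentiating spermatogonia the median log2 difference was -0.27 in the Zbtb16 effect and -0.74 in the Sox3 effect, beside 0.01 and 0.02 over all genes. The Sox3 effect called 5 of the 10 lower (4.57% of all genes tested were called lower) and none higher, and 9 of 10 had the same sign in both. Kit, which chose the WT libraries, is one of the 10, and without it the medians were -0.29 and -0.76 and 8 of 9 had the same sign. Leaving out Kit does not remove the choice, because the other members are genes of the same stage and stay tied to it. With the fraction labels taken as given, the Sox3 effects of Crabp1 and Rhox13 turned positive. Stra8, the gatekeeper of meiosis induced by retinoic acid, was at 130, 90.7 and 123 FPKM in WT and 71.5, 48.2 and 64.4 FPKM in null KIT+ dSPG. In the Sox3 table it was at 123, 150 and 126 FPKM in WT and 54, 45 and 65.2 FPKM in cKO libraries, a fall of 1.29 ± 0.15 (limma, adjusted p = 0.00162). Its Zbtb16 effect of -0.90 ± 0.21 missed the threshold (adjusted p = 0.133) and passed with the replicate block (adjusted p = 0.0225). Crabp1, a binding protein for retinoic acid, fell by 1.14 ± 0.15 in the Sox3 effect, from 208, 239 and 225 FPKM to 85.2, 124 and 99.9 FPKM (adjusted p = 0.00195). In the Zbtb16 effect Crabp1 had -0.43 (adjusted p = 0.361), and Sohlh1 and Sohlh2, transcription factors that start differentiation, had -0.24 and -0.29 against Sox3 effects of -0.76 and -0.71 (adjusted p = 0.00601 and 0.00559).

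Of 22 meiosis genes tested, 11 were called lower in the Sox3 effect (4.57% of all genes were) and none higher, and all 22 had a negative value there. In the Zbtb16 effect 18 of 22 were negative and none was called (0.259% of all genes were), with a median of -0.25 beside -0.67 for Sox3. Syce3, a central element protein of the synaptonemal complex, had the largest change among the called ones at -1.18 (limma, adjusted p = 0.00273) and 0.04 in the Zbtb16 effect, and Sycp3, an axial element protein that the study names, had -0.72 (adjusted p = 0.00867) and -0.17. Of 13 genes of all germ cells, 2 were called lower in the Sox3 effect (4.57% of all genes were), Tex101 (-0.90) and Mael (-0.61). Ddx4, whose promoter drives the Cre, was at 158 ± 3.1 and 130 ± 19 FPKM in WT and null KIT+ dSPG and at 165 ± 3.9 and 116 ± 12 FPKM in the Sox3 table (SD, n = 3). Its Sox3 effect of -0.51 was below the fold limit (adjusted p = 0.00595).

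Markers of stem spermatogonia had positive medians in both effects, 0.23 and 0.40 over 12 genes. The Sox3 effect called Etv5, a transcription factor downstream of GDNF, and Gfra1, the GDNF co-receptor, higher, 2 of 12 beside 12.4% of all genes. With the replicate block the Zbtb16 effect called Id4, an inhibitor of DNA binding found in stem cells, higher (0.89, limma, adjusted p = 0.0406), and the transcription factors Lhx1 (-0.73, adjusted p = 0.0365) and Pax7 (-0.69, adjusted p = 0.0495) lower. Of all genes, 2.29% were called in the Zbtb16 effect with that block. Gfra1 was at 6.1, 4.08 and 7.89 FPKM in WT and 10, 7.52 and 12.9 FPKM in cKO libraries (0.76, limma, adjusted p = 0.0391), which overlapped, and it had 0.13 in the Zbtb16 effect (adjusted p = 0.817). Both calls were near the threshold: Etv5 (0.90, adjusted p = 0.0473) was called in 1 and Gfra1 in 2 of the 6 fits with a library left out. Among 9 progenitor genes the Sox3 effect called Neurog3 and Lin28a lower (4.57% of all genes were), and the medians were -0.23 and -0.24.

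In the retinoic acid pathway, enzymes and receptors did not move as one. Of 18 genes, the Sox3 effect called 4 higher and 1 lower (17.0% of all genes were called), the Zbtb16 effect 1 higher (Rxrg) and 1 lower (Cyp26a1; 0.259% of all genes were called), and 13 had the same sign. With the replicate block the Zbtb16 effect also called Rarb, a retinoic acid receptor, lower (-0.70, limma, adjusted p = 0.0406). Aldh1a1, which makes retinoic acid, rose by 1.30 ± 0.29 in the Sox3 effect (limma, adjusted p = 0.00948) with 0.54 in the Zbtb16 effect (adjusted p = 0.198). Cyp26b1, which degrades it and is a gene the study names, rose by 1.46 ± 0.39 (adjusted p = 0.0206) with 0.85 (adjusted p = 0.42). Dhrs3, which returns retinal to retinol, rose by 1.09 ± 0.15 (adjusted p = 0.00213) with 0.64 (adjusted p = 0.261). Cyp26a1 and Cyp26b1, enzymes of one family, thus had opposite signs within each mutant, though Cyp26b1 was not called in the Zbtb16 effect. The Sox3 call held in 3 of the 6 fits with a library left out for Cyp26b1 and in 2 for Cyp26a1.

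Of 23 cell cycle genes, the Sox3 effect called 1 lower (4.57% of all genes were), Aurka, a mitotic kinase (-0.62, limma, adjusted p = 0.0177). The Zbtb16 effect called none (0.259% of all genes were called), and the medians were -0.31 in the Sox3 effect and -0.16 in the Zbtb16 effect. Among 12 D cyclins, their kinases and inhibitors, Cdk6 and Cdkn2a were called lower and Cdkn1b and Cdkn2c higher in the Sox3 effect, 4 of 12 beside 17.0% of all genes. Cdk6 was at 10.2, 10.2 and 12.7 FPKM in WT and 4.45, 5.75 and 5.68 FPKM in cKO libraries (-1.05 ± 0.13, adjusted p = 0.00176), and at 9.52, 10.3 and 11 FPKM in WT and 9.33, 7.67 and 8.03 FPKM in null KIT+ dSPG (-0.30, adjusted p = 0.26). Ccnd1, a D cyclin that the study names, had -0.57 in the Sox3 effect (adjusted p = 0.0574) and -0.29 in the Zbtb16 effect (adjusted p = 0.325).

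**Figure D4:**
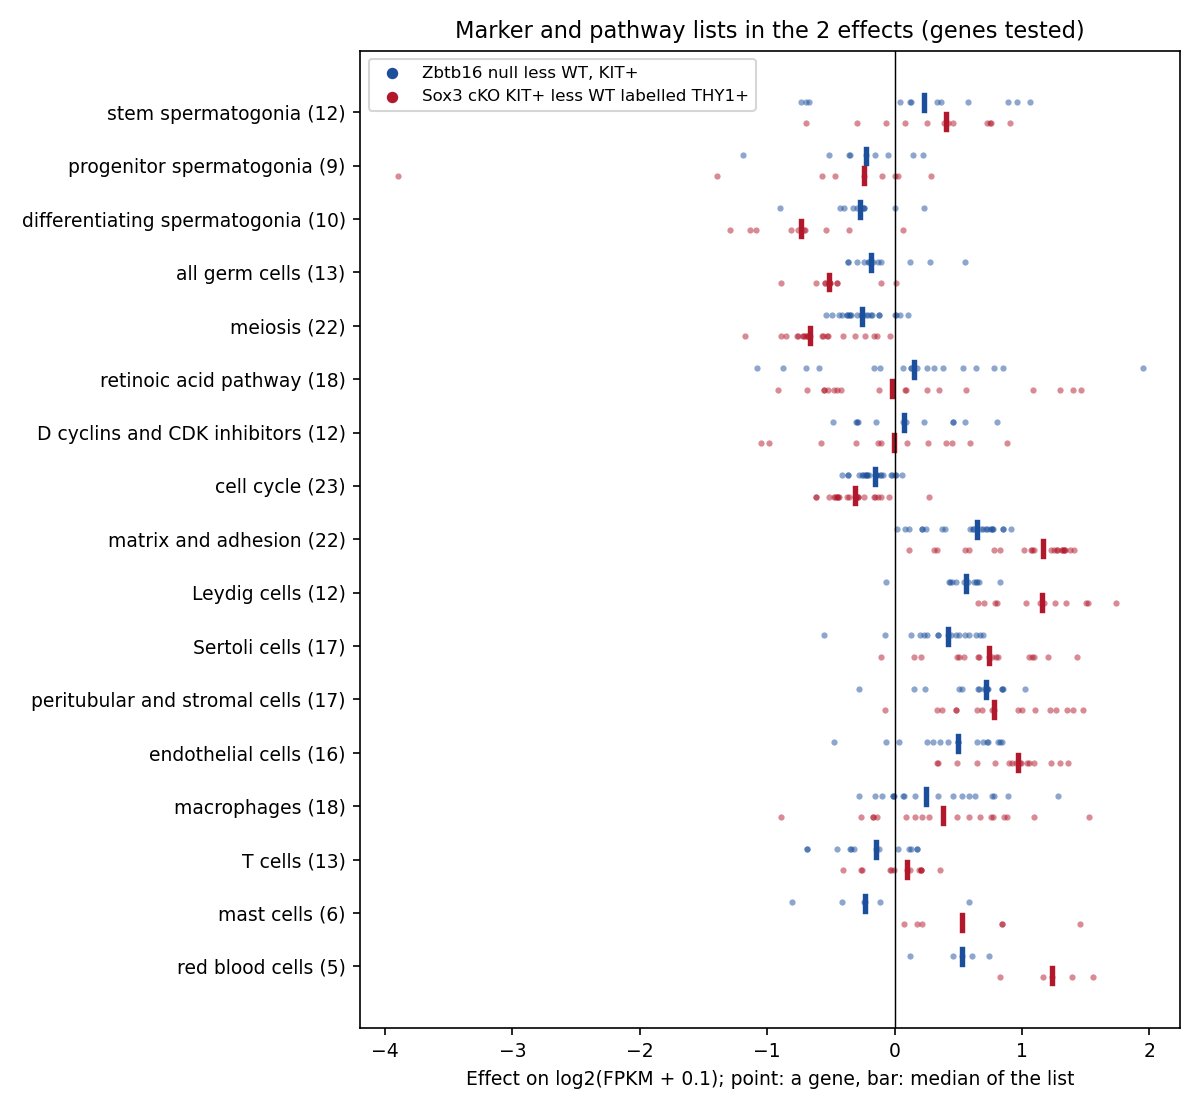
Log2 differences of the genes of 17 marker and pathway lists (rows, with the number tested in both), blue for the Zbtb16 effect and red for the Sox3 effect; each point is a gene and each bar the median of its list. Medians lie left of 0 in both effects for differentiating, meiosis and all germ cell genes and right of 0 for matrix, Leydig, Sertoli, peritubular, endothelial, macrophage and red blood cell genes, and the medians of T cell, mast cell, retinoic acid and D cyclin genes change sign between the effects.

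Somatic genes had mostly positive values in both effects, and calls among them were made in the Sox3 effect. Of 104 genes of 8 somatic lists tested in both, 84 had the same sign, with medians of 0.45 in the Zbtb16 effect and 0.77 in the Sox3 effect. The Sox3 effect called 34 of 105 higher, which is 32.4% against 12.4% of all genes, and none lower. The Zbtb16 effect called none of 104, where 0.192% of all genes were called higher. With the replicate block it called 5 higher, which is 4.81% against 1.57% of all genes. As a share of calls, somatic list genes made up 0.942% of the 3608 Sox3 calls and 1.289% of the 2638 higher ones, beside 0.495% of genes tested. They made up 30 of the 1209 genes at least 1.5-fold higher in both (2.481%), none of the 141 lower in both and 1 of the 91 that went opposite ways. None of the 69 genes whose effects differed was in a somatic list, beside 0.494% of the genes tested in both. At that share a set of 69 genes is too small for this count to say much. The lists hold 111 genes and cover only part of somatic expression. The correlation of the effects was 0.54 with and without these genes.

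Leydig markers were the most abundant. Star, which carries cholesterol into mitochondria for steroid synthesis, was at 80.8, 114 and 60.5 FPKM in WT and 164, 132 and 145 FPKM in null KIT+ dSPG, and at 136, 42.1 and 84.1 FPKM against 348, 158 and 207 FPKM in the Sox3 table. It rose by 1.52 ± 0.41 in the Sox3 effect (limma, adjusted p = 0.0214; 0.0777 at most with a library left out) and had 0.83 ± 0.22 in the Zbtb16 effect (adjusted p = 0.164; 0.0393 with the replicate block). Of 12 Leydig genes 7 were called higher in the Sox3 effect, where 12.4% of all genes were. The same share stands beside the lists that follow. Kitl, the Sertoli cell ligand of KIT, was at 9.02, 6.93 and 6.39 FPKM in WT and 19.9, 21.3 and 19 FPKM in cKO libraries, a rise of 1.43 ± 0.27 (adjusted p = 0.00541), with 0.50 in the Zbtb16 effect (adjusted p = 0.232), and 6 of 17 Sertoli genes were called. Pdgfra, a receptor of stromal and Leydig precursors, rose by 1.48 ± 0.27 (adjusted p = 0.00427) and had 0.85 in the Zbtb16 effect (adjusted p = 0.22), and 6 of 17 peritubular and stromal genes were called. Cdh5, the endothelial cadherin, rose by 1.36 ± 0.26 (adjusted p = 0.00562) and had 0.81 in the Zbtb16 effect (adjusted p = 0.345), with 7 of 16 endothelial genes called.

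Matrix and adhesion genes moved with the somatic lists. All 22 were positive in both effects, with medians of 0.65 and 1.16. The Sox3 effect called 16 higher, beside 12.4% of all genes, and the Zbtb16 effect none, beside 0.192%. Nid1, a basement membrane protein, was at 20.3, 12.2 and 21.4 FPKM in WT and 38.4, 49.9 and 48.9 FPKM in cKO libraries (1.37 ± 0.25, limma, adjusted p = 0.0046). In the Zbtb16 table it was at 14.9, 39.8 and 19.8 FPKM in WT and 21.2, 59.6 and 32.1 FPKM in null KIT+ dSPG, so that the groups overlapped while each null library lay above the WT library of the same number. Blood cell lists were low or mixed. Macrophage genes summed to 10.5 to 25.5 FPKM over the 12 libraries and 6 of 18 were called higher in the Sox3 effect, T cell genes summed to 2.4 to 3.56 FPKM with none of 13 called, and of 6 mast cell genes Hdc, a histamine-forming enzyme, was called higher (1.46, adjusted p = 0.00162). Of 5 red blood cell genes tested, Alas2 was called higher (0.83, adjusted p = 0.0237). Beside these lists too stands the 12.4% of all genes called higher, and 1 call in a list this short is near it.

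The somatic level of whole libraries moved with genotype in both tables. A somatic index, the mean log2 value of the Leydig, Sertoli, peritubular and endothelial lists, was 2.37, 3.08 and 2.63 in WT and 2.89, 3.38 and 3.20 in null KIT+ dSPG, which overlapped, and each null library lay above the WT library of its number. In the Sox3 table it was 2.95, 2.55 and 2.79 in WT libraries labelled THY1+ and 3.77, 3.45 and 3.72 in cKO libraries, with no overlap. The part of the index in the effects was not tested beyond a fit, added after seeing the data, that holds it as a covariate. There the Zbtb16 effect had 38 calls, the Sox3 effect had none (2090 genes at an unadjusted p under 0.05), 4 genes differed between the effects, and r was -0.09. Because the index and the genotype separate the same libraries in the Sox3 table, they cannot be told apart there. In that fit Nsg2 had 1.84 in the Zbtb16 effect (limma, adjusted p = 0.00723) and -1.25 in the Sox3 effect (adjusted p = 0.476).

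**Figure D5:**
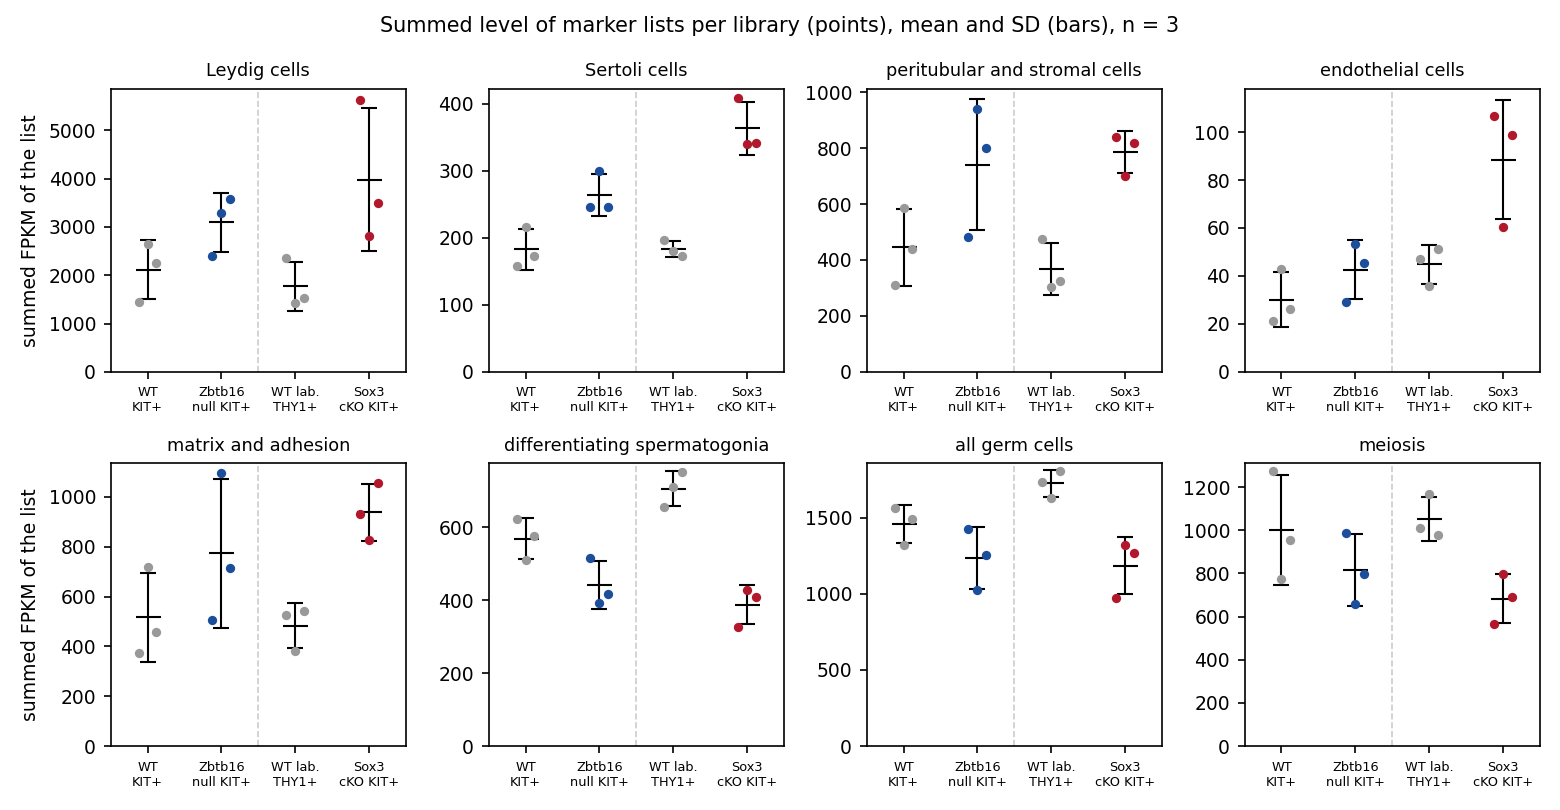
Summed FPKM of 8 marker and pathway lists in the 12 libraries, with 1 point per library and the mean and SD of the 3 libraries of a group as bars; the dashed line separates the Zbtb16 table from the Sox3 table. In the Sox3 table the cKO libraries lie above the WT libraries for the somatic and matrix lists and below them for the germ cell lists, with no overlap, and in the Zbtb16 table the groups overlap for the Leydig, peritubular, endothelial, matrix, germ cell and meiosis lists.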

How the data were processed

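RNA sequencing libraries were made from ribo-depleted total RNA of bead-sorted spermatogonia. The authors aligned reads to mm10 with Novoalign, tested with DESeq2 and deposited FPKM values, one table for each mutant. The strand setting of the counting is not given in the sources used here. From these FPKM values, log2(FPKM + 0.1) was tested with limma 3.58.1 in R 4.3.3 (lmFit, eBayes with trend and robust) for genes with a mean of at least 0.1 FPKM over the 12 libraries of a table. The 4 groups of a table shared one estimate of the spread, and the difference of effects was tested in both tables joined, with 8 group means. A call needed a Benjamini-Hochberg adjusted p of 0.05 or less and at least 1.5-fold. Fold changes are on the log2(FPKM + 0.1) scale, which understates changes of low genes. The code was tested on simulated data.

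Read numbers were estimated from the steps of low FPKM values, of which 77.6% to 80.8% in these 12 libraries were whole within 0.05 reads. Intervals and floors cover counting error only, and a floor is 3 reads. Same-numbered null and WT KIT+ libraries of the Zbtb16 table had deviations from their group means that correlated at 0.53, 0.64 and 0.46, so the numbers were taken to pair those samples. The labels give only replicate numbers, so this pairing was inferred from the same values that the block fit tests.

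The members and the 20 gene lists (8 somatic, 5 germ cell, 4 pathway and the rest genes that the study names) were chosen with earlier results of these data known. Named genes were the targets and sort markers, genes called in both effects, the 5 calls with the largest positive and the 5 with the largest negative value of each effect and of their difference at 1 FPKM or more without overlap, called or abundant list members, and genes the study names. Alternatives varied the pseudocount, filter, scaling, model and libraries.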

Additional observations from a re-analysis of the deposited data

Results flagged for a closer look

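For 10 genes named by the rule, the effects of the 2 genotypes differed by limma's test of the difference itself (Zbtb16 effect less Sox3 effect, log2 scale). The positive differences were 6.85 for Sox3, which is the deleted gene, 4.58 for Dppa3, 2.90 for Nsg2, 2.71 for Neurog3 and 2.64 for A730013G03Rik. The negative differences were -4.73 for Mir23a, -1.66 for Gjb2, -1.51 for Nxpe2, -1.43 for Gm14412 and -1.33 for Gm2381. Mir23a, a microRNA gene, was at 0.418, 0 and 0 FPKM in the Sox3-table WT libraries labelled THY1+ and at 3.78, 3.38 and 4.51 FPKM in cKO KIT+ libraries. In the Zbtb16 table Mir23a was at 1.4, 3.79 and 3.61 FPKM in WT and at 2.57, 1.79 and 2.68 FPKM in null KIT+ dSPG. Nxpe2, a gene on the same chromosome as Zbtb16, was called higher in the Sox3 effect (0.96) and was not called in the Zbtb16 effect (-0.55). Its difference of effects was called in 1 of the 12 fits that leave out a library (limma, adjusted p = 0.0468 with all). Groups of 3 libraries were too small for a test of single outlying libraries.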

How the results depend on the processing

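Median centring and quantile normalization left the total counts of calls within 1.5 times. By direction, lower Sox3 calls went from 970 to 1821 with median centring, and genes at least 1.5-fold higher and lower in both from 1209 and 141 to 690 and 299. With a pseudocount of 1 there were 25 Zbtb16 calls, 1 gene called in one direction in both effects, 0 opposite and 41 whose effects differed, and r was 0.64; a pseudocount of 0.01 gave r = 0.45. A minimum of 1 FPKM gave 0 opposite calls and r = 0.61. Without trend and robust settings 2 genes were opposite. With the 6 libraries of each contrast alone there were 2 Zbtb16 calls, 0 shared, 0 opposite and 12 differing. The replicate block in both tables gave 513 Zbtb16 calls, 204 shared, 5 opposite and 423 differing; Sox3 calls were 4194, and the Sox3 pairs (deviations correlated at 0.42, -0.01 and 0.22) shared only a number. The block in the Zbtb16 table alone, chosen after seeing the data, gave 513, 171, 2 and 133. Leaving out one library gave 25 to 37 Zbtb16 calls, 2334 to 3484 Sox3 calls (2334 without WT replicate 2), 0 to 6 shared, 1 to 2 opposite, 18 to 72 differing, r from 0.40 to 0.61 and a somatic share of Sox3 calls from 0.869% to 1.214%. Sox3 replicates 2 and 3 alone gave 987 Sox3 calls, 2 shared, 0 opposite, 37 differing and a somatic share of 1.52%. Taking the fraction labels as given (WT libraries labelled KIT+) gave 24 opposite, 3454 differing, r = 0.24 and a somatic share of 1.449%, and turned the Sox3 effect of Cpne7 (0.14), Gm27604 (-0.24), Snord107 (-1.07), Etv5 (-1.20), Gfra1 (-1.72), Crabp1 (0.56), Rhox13 (0.28), Itga1 (-0.68), Adamts5 (-0.15), Col6a3 (-0.06), Col15a1 (-0.059), Lyz2 (-7.85), F13a1 (-8.64), Tyrobp (-7.51), Fcer1g (-6.02), Mrc1 (-7.34) and C1qb (-9.39). A GC and length correction, also added after seeing the data, gave 11 shared and 3 opposite. The somatic index covariate, added likewise, gave 38 Zbtb16 calls, 0 Sox3 calls, 0 shared, 0 opposite, 4 differing and r = -0.089, and turned Gm27604 (-1.25), Snord107 (-0.0058), Smc1b (0.034), Cdkn1b (-0.20), Lama4 (-0.0093), Col6a2 (-0.013), Col6a1 (-0.46), Sparc (-0.37), Col5a2 (-0.44), Col6a3 (-0.36), Col15a1 (-0.038), Fdxr (-0.072), Gata4 (-0.10), Clu (-0.39), Gli1 (-0.55), Col1a2 (-0.20) and Col3a1 (-0.32). Fdxr, Gata4, Clu, Gli1, Col1a2 and Col3a1 are themselves members of the somatic index, so their values with it as a covariate are tied to it. Of 2406 values of 130 named gene effects under alternatives other than this covariate, 1981 kept direction and side of the threshold, 408 lost the call and 17 turned. The cause of these shifts was not tested.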

Other observations

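Genes of the imprinted region from Dlk1 to Mirg (chr12:109452823-109749460, mm10) were mostly positive in both effects. Of 42 genes tested there, 41 were positive in each effect, with medians of 0.79 for Zbtb16 and 1.18 for Sox3. The Sox3 effect called 15 higher, beside 12.4% of all genes, and none lower. The Zbtb16 effect called 1 higher, beside 0.192% of all genes, or 13 with the replicate block, beside 1.57%. This region was chosen after its values were seen, and many of its small RNA genes lie inside Rian and share its reads. It ends at Mirg and leaves out Dio3, which had 0.59 in the Zbtb16 effect and was called lower in the Sox3 effect (-0.95). The effects on Dio3 differed by 1.54 (limma, adjusted p = 0.0434). Meg3, a maternally expressed long noncoding RNA, was at 4.21, 2.92 and 3.63 FPKM in the Sox3-table WT libraries labelled THY1+ and at 9.46, 7.41 and 9.86 FPKM in cKO KIT+ libraries (1.29, limma, adjusted p = 0.00474). In the Zbtb16 table Meg3 was at 3.48, 7.57 and 5.89 FPKM in WT and at 6.53, 9.96 and 10.5 FPKM in null KIT+ dSPG (0.70, adjusted p = 0.254; 0.0459 with the replicate block).

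Among genes of the X chromosome, where Sox3 lies, 27.4% of 902 were called in the Sox3 effect, 172 higher and 75 lower, beside 12.2% to 20.2% on the 19 autosomes. In the Zbtb16 effect none of 982 X-linked genes was called, beside 0% to 0.734% on the autosomes.

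The genes that the study names are not independent evidence here. It named them from THY1+ uSPG, while the mutant libraries here are KIT+ dSPG. Of 7 given as lower in the Zbtb16 null the Zbtb16 effect called 1 lower, beside 0.067% of all genes. Of 9 given as higher it called 2 higher (Krt18 and D030018L15Rik), beside 0.192%. Of the 4 named for the Sox3 cKO the Sox3 effect called 2 higher, beside 12.4% of all genes, and 2 lower, beside 4.57%. Neurog3 and Lin28a kept these calls in all 6 fits with a library left out, Cyp26b1 in 3 and Col15a1 in 1.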
